A study of Mus musculus with 4 samples.

Results

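Genes that move zinc, copper and magnesium across liver cell membranes, or hold these metals inside the cell, were compared between male and female mouse liver. The members are the entries of the table named for the Slc39 (ZIP), Slc30 (ZnT) and Slc41 transporter families, together with 15 named genes, which are the metallothioneins Mt1 and Mt2 with their regulator Mtf1, the copper genes Slc31a1, Slc31a2, Atp7a, Atp7b, Atox1, Ccs and Cp, the reductases Steap2, Steap3 and Steap4, and the divalent metal transporters Slc11a1 and Slc11a2. They number 42 of 21827 gene entries, and the rule that picks them uses gene names, not measured values. The mice were untreated, 8 weeks old and of the outbred CD-1 stock. RNA of 12 male and of 12 female livers was mixed into 2 pools of 6 livers per sex, and the 4 pools were sequenced after poly-A enrichment with a strand-specific method. The table holds 1 value per gene and sex, so every level is the authors' value for a sex, with no spread between pools or mice. Because each pool mixes livers, differences between single animals cannot be seen, and because whole liver was used, more cells of a type and more RNA per cell cannot be told apart.

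Zinc enters the cytosol from outside the cell or from organelles through ZIP proteins and leaves it through ZnT proteins, and metallothioneins, which are small proteins rich in cysteine, bind the surplus. MTF1 is a transcription factor that senses zinc and binds metal response elements, short DNA motifs in front of the metallothionein genes and of Slc30a1. Copper enters through SLC31A1, is handed on by the chaperones ATOX1 and CCS, and is pumped by ATP7B into bile or onto ceruloplasmin, the copper protein that liver secretes into plasma. Liver is also a store of magnesium, which SLC41 proteins move across the plasma membrane and mitochondrial membranes.

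The promoters of Mt1, Mt2 and Slc30a1 are shown because the 3 genes are textbook targets of MTF1. Each run is the 250 bases before the RefSeq transcription start, 5′ to 3′ on the gene's own strand, with metal response element matches in capitals (TGCACNC or TGCGCNC on either strand, where the reverse strand reads GNGTGCA or GNGCGCA). RefSeq coordinates are on GRCm38.p6, whereas the positions of genes given with their levels are on mm9, the build of the table. The Mt1 run lies at chr8:94178839-94179088, the Mt2 run at chr8:94172368-94172617 and the Slc30a1 run at chr1:191906531-191906780, all on the plus strand.
Mt1: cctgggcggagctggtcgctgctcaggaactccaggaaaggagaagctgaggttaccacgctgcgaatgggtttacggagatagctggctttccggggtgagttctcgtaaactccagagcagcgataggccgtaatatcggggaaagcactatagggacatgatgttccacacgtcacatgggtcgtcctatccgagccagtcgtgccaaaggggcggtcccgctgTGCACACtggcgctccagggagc
Mt2: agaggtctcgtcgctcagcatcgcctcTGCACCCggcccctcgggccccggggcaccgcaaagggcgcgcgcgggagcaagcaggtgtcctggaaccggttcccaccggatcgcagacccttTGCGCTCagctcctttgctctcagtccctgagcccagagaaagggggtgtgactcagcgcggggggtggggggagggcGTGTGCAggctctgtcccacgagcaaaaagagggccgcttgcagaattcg
Slc30a1: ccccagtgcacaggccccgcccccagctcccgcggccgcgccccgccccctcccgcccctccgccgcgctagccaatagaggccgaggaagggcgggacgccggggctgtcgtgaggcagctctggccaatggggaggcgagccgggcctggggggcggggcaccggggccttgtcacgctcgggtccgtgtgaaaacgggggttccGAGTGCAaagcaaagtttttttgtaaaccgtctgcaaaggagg
The Mt1 start in RefSeq lies upstream of 2 more matches, at bases 3 to 9 and 21 to 27 after it, in the 30-base stretch chr8:94179089-94179118.
Mt1 after the start: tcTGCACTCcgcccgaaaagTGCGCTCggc

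In the whole window of 300 bases, which adds the 50 bases after the start, Mt2 had 4 matches, Mt1 had 3 and Slc30a1 had 2. Mt2 had its matches at bases 223 to 217, 128 to 122 and 50 to 44 before the start and 5 to 11 after it, and Slc30a1 at bases 43 to 37 before and 31 to 37 after the start. Of all 32851 RefSeq promoters in the same kind of window, 25.7% held at least 1 match, 1.97% at least 3 and 0.517% at least 4. Promoters were found for 36 of the 42 members, 47 promoters in all, because some genes have several starts. A match stood in 21 of these 47 promoters (44.7%), and 4 members had 3 or more: Mt2, Mt1 and the zinc transporter genes Slc30a10 and Slc30a4. A match is a string of letters and not a measured binding site.

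**Figure D1:**
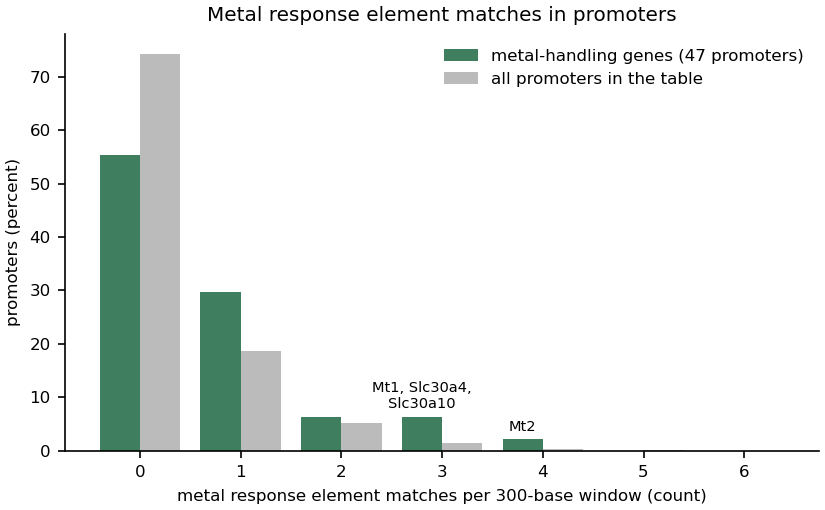
Percent of promoters (vertical axis) by the number of metal response element matches in a window of 300 bases (horizontal axis, drawn to 6 matches), for 47 promoters of metal-handling genes (green, left bar) and for all 32851 promoters (grey, right bar). Mt2 stands at 4 matches, Mt1, Slc30a4 and Slc30a10 at 3, and most promoters of either kind have none.

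Levels are log2 RPKM, the base-2 logarithm of reads scaled by transcript length and by sequencing depth, so they can be compared between genes whose entry covers the whole transcript. The entries of 5 members, Slc30a9, Slc30a3, Slc31a2, Slc11a2 and Slc41a2, span under 50% of the gene in GENCODE. Span is distance on the genome with introns included, not the share of a transcript. The entries of Slc30a3 and Slc31a2 were matched by accession to GENCODE transcripts of 2089 and 1820 bases, so a short span need not mean a partial transcript. No transcript length was matched for Slc30a9, Slc11a2 and Slc41a2, and their levels describe the part that the entry spans. Of the 42 members, 39 have a male over female ratio in the table and are referred to as compared. Slc30a2 sat on the floor of the scale in male and female liver and carries the adjusted p of 0.026 that every gene at the floor carries, which was disregarded. Slc39a12 and Slc30a8, a gene of insulin granules in pancreatic beta cells, lay at the floor in male liver, and their female levels correspond to 4 and 3 reads. Reads are those above the floor: a gene without reads is taken to be listed as if it had 1, and that 1 is subtracted. On this reading the floor implies 11239946 reads for male and 14717080 for female liver. Counting intervals given below are exact (Clopper-Pearson, 95%) and leave out any variation among mice and pools.

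A gene was called different at an adjusted p under 0.05 in the authors' deposited table. By that rule 9 of the 39 compared members (23.1%) differed, against 17.4% of all 13763 compared genes. Male liver had the higher level for 4 of them, Slc39a4, Slc41a1, Slc41a2 and Slc41a3 (10.3%, against 7.21% of all compared genes). Female liver had the higher level for 5, Mt1, Mt2, Slc39a5, Slc39a6 and Steap2 (12.8%, against 10.2%). Both shares are close to those of all compared genes. The median log2 ratio of male over female was 0.04 over the 39 members and -0.02 over all compared genes.

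Calls were also counted by level. Among the 32 members that reached a log2 RPKM of 1 in male or female liver, the authors' limit for a liver-expressed gene, 4 differed (Mt1, Mt2, Slc39a4 and Slc41a2), which is 12.5%, against 17.2% of all genes above that limit. The other 5 called members were among 7 compared members that lay below it in both sexes (71.4%, against 18% of all compared genes below it). This difference by level was not tested. The highest levels in the set belonged to ceruloplasmin, the entry for Slc11a2, and Ccs, none of which was called.

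**Figure D2:**
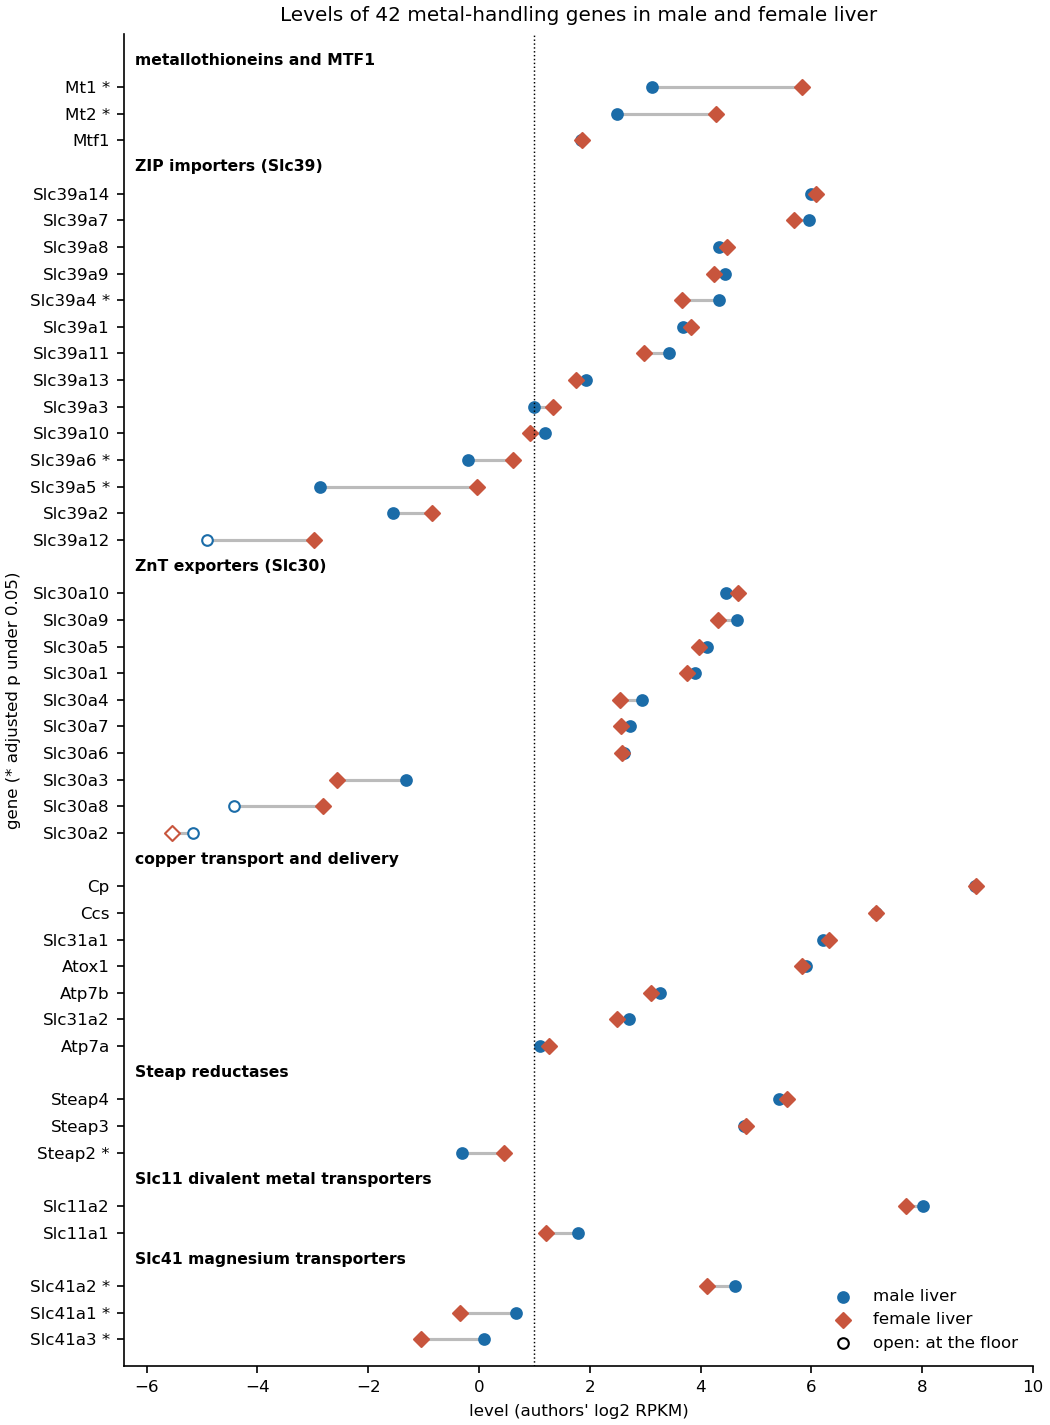
Log2 RPKM (horizontal axis) of the 42 members in male (blue circles) and female (red diamonds) liver, grouped by role and ordered by level, 1 value per sex with no error available. An asterisk marks an adjusted p under 0.05, open symbols lie at the floor of the scale and the dotted line marks a log2 RPKM of 1, the liver-expressed limit; the widest gaps among expressed genes are those of Mt1 and Mt2.

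Metallothionein messages were higher in female liver. Mt1 (chromosome 8, 96702989 to 96704227, mm9) had a log2 RPKM of 3.13 in male and 5.83 in female liver. Female liver was 6.39-fold higher according to the authors' deposited table (adjusted p = 3.33e-21), and the implied 53 male and 459 female reads allow 4.97-fold to 8.96-fold by counting. Mt2 (chromosome 8, 96696518 to 96697467, mm9), which lies 5.52 kb from Mt1 with no other entry of the table between them, had a log2 RPKM of 2.49 in male and 4.28 in female liver. It was 3.59-fold higher in female liver according to the authors' deposited table (adjusted p = 5.18e-08), with 31 male and 145 female reads implied and 2.41-fold to 5.45-fold allowed by counting.

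Added together, Mt1 and Mt2 came to 14.3 RPKM in male and 76.4 RPKM in female liver, 5.33 times as much in female liver. The sum of the other 40 members, with the short Slc11a2 entry described below included, was 1477 RPKM in male and 1405 RPKM in female liver. The excess of Mt1 over Mt2 on the log2 RPKM scale was 0.64 in male and 1.55 in female liver, and this difference between the 2 genes was not tested. Mt1 and Mt2 are similar in sequence, and the sources used here do not say how reads that fit both were assigned, so the split between them is less certain than their sum. Mt3 and Mt4, the metallothionein genes of brain and of skin, lie nearby and were at the floor in both sexes.

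The gene of the zinc-sensing regulator was not called. Mtf1 (chromosome 4, 124479793 to 124527044, mm9) had a log2 RPKM of 1.85 in both male and female liver, with an adjusted p of 0.781 in the authors' deposited table and a counting interval of 0.858 to 1.16 for male over female. Slc30a1, the other MTF1 target shown above, encodes the zinc exporter of the plasma membrane. Its log2 RPKM was 3.90 in male and 3.76 in female liver, 1.09-fold higher in male liver (adjusted p = 0.532, authors' deposited table). Slc30a10 and Slc30a4, whose promoters hold 3 matches like that of Mt1, were not called. Of 4 further textbook regulators of metallothionein genes, the glucocorticoid receptor gene Nr3c1, Stat3, Usf1 and Sp1, none was called in the authors' deposited table. Over all compared genes 17.4% were called. The log2 ratios of the 4 regulators lay between -0.11 and 0.18. Message levels do not give the activity of the proteins. The part of MTF1 or of these regulators in the metallothionein result was not tested.

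Metallothioneins are also known as acute phase genes, which inflammation induces. Of the 6 acute phase genes listed for this purpose, Lcn2 and Orm2 were higher in female liver and Saa1 and Saa2 in male liver, and Saa3 and Orm1 were not called in the authors' deposited table. Over all compared genes, 10.2% were called higher in female and 7.21% in male liver. Lcn2, which encodes an iron-sequestering lipocalin, had a log2 RPKM of 1.38 in male and 4.60 in female liver. Orm2 had 2.403 in male and 3.285 in female liver on the same scale. In the other direction, Saa1 had 7.275 in male and 5.999 in female liver, and Saa2 had 5.951 in male and 4.576 in female liver. The summed level of the 6 genes was 672 RPKM in male and 562 RPKM in female liver. The part of an acute phase difference in the metallothionein result was not tested.

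Zinc importers had calls in both directions. Of 14 ZIP genes, 13 were compared, and the median log2 ratio was -0.04. Of the 13, 1 was called higher in male liver (7.69%, against 7.21% of all compared genes). Another 2 were called higher in female liver (15.4%, against 10.2%). The family's 2 most abundant members were not called. Slc39a14, which imports zinc, iron and manganese into hepatocytes, had a log2 RPKM of 6.00 in male and 6.08 in female liver (adjusted p = 0.823, authors' deposited table). Slc39a7, which releases zinc from the endoplasmic reticulum, had 5.95 in male and 5.68 in female liver on the log2 RPKM scale (adjusted p = 0.316, authors' deposited table).

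Slc39a4 was the ZIP gene higher in male liver. It encodes the importer through which the intestine takes up dietary zinc (chromosome 15, 76442815 to 76447322, mm9). Its log2 RPKM was 4.33 in male and 3.67 in female liver, and male liver was 1.51-fold higher according to the authors' deposited table (adjusted p = 0.00507). No transcript length was matched to this entry, so no counting interval is given.

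The 2 ZIP genes higher in female liver were scarce in both sexes. Slc39a5 (chromosome 10, 127832988 to 127838280, mm9), an importer of the basolateral membrane in intestine and pancreas, had a log2 RPKM of -2.86 in male and -0.03 in female liver. The authors' deposited table gives a 10.3-fold higher level in female liver (adjusted p = 0.0003), but 2 male and 27 female reads are implied, and counting allows 2.59-fold to 89.5-fold. Slc39a6 (chromosome 18, 24738382 to 24762318, mm9) was first described as an oestrogen-regulated gene of human breast cancer cells. It had a log2 RPKM of -0.20 in male and 0.60 in female liver, a level 1.86-fold higher in female liver (adjusted p = 0.00515, authors' deposited table). The implied reads were 37 in male and 86 in female liver, with 1.19-fold to 2.69-fold allowed by counting. The other 10 compared ZIP genes had log2 ratios between -0.77 and 0.36, and the lowest adjusted p among them was 0.123.

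Zinc exporters showed no called difference. Of 10 ZnT genes, 8 were compared. None of the 8 was called at an adjusted p under 0.05 in the authors' deposited table, against 17.4% of all compared genes. With 8 genes, this count says little about the family. No unadjusted p is given there. The log2 ratios of the compared ZnT genes were positive for 7 of 8, with a median of 0.13 and a range from -0.27 to 1.35. Slc30a4, which loads zinc into vesicles, came nearest to the limit. Its log2 RPKM was 2.93 in male and 2.54 in female liver, 1.31-fold higher in male liver (adjusted p = 0.0654, authors' deposited table). Slc30a9 followed with 4.65 in male and 4.31 in female liver on the log2 RPKM scale (adjusted p = 0.0897, authors' deposited table). Its entry spans 18.6 kb, 36.2% of the gene's span in GENCODE.

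The ZnT gene with the negative ratio was Slc30a10, which despite its family name is known as the exporter of manganese into bile. It had a log2 RPKM of 4.46 in male and 4.67 in female liver (adjusted p = 0.157, authors' deposited table). Slc30a5, Slc30a6 and Slc30a7, whose products carry zinc into the secretory pathway, differed by 1.05-fold, 1.02-fold and 1.10-fold in the authors' deposited table, each slightly higher in male liver. Slc30a3, the zinc transporter gene of synaptic vesicles, had the widest ratio of the family at 2.55-fold higher in male liver (adjusted p = 0.354, authors' deposited table). It rested on 8 male and 4 female reads, and its entry covers 33.5% of the gene's span in GENCODE. Its counting interval ran from 0.702 to 11.9.

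**Figure D3:**
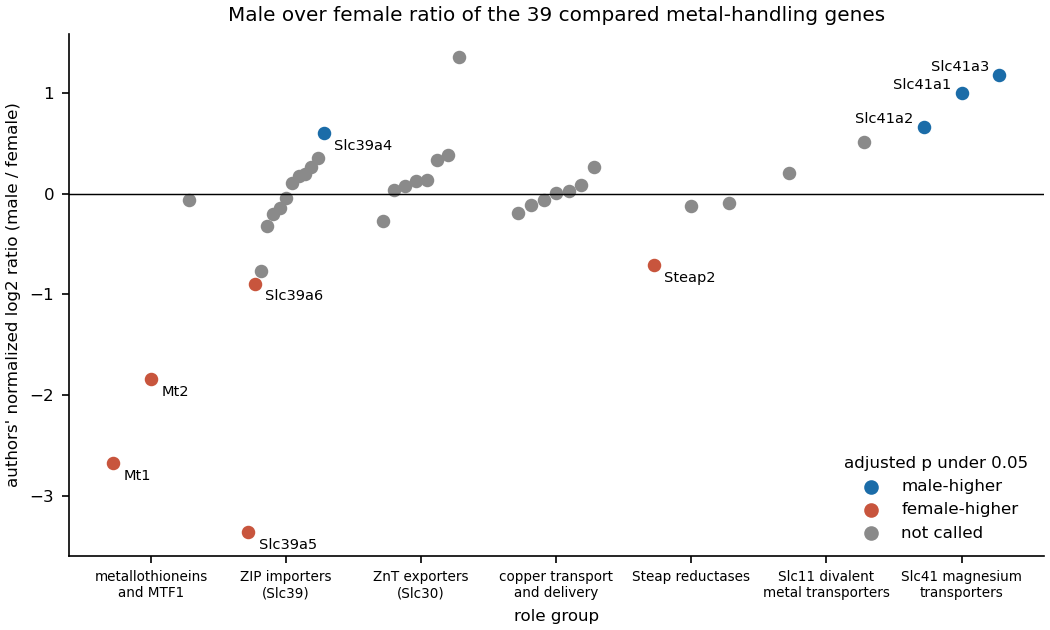
Normalized log2 ratio, male over female, as the authors give it (vertical axis) of the 39 compared members, placed by role (horizontal axis) and in order of ratio within a role; blue points were called higher in male liver, red points in female liver and grey points were not called. The metallothioneins and Slc39a5 lie at the bottom, the 3 Slc41 genes lie above 0.6, and the copper genes lie between -0.19 and 0.26.

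None of the 7 copper genes was called, against 17.4% of all compared genes, and a count over 7 genes says little about the group. Their ratios lay near 1. All 7 were compared in the authors' deposited table, and their log2 ratios lay between -0.19 and 0.26, the narrowest range of the groups with at least 5 members. Ceruloplasmin (Cp; chromosome 3, 19857054 to 19907609, mm9) was the most abundant member of all, with a log2 RPKM of 8.96 in male and 8.97 in female liver. Ccs, which delivers copper to superoxide dismutase, had 7.17 in male and 7.16 in female liver on the log2 RPKM scale, and counting allows male over female ratios from 0.945 to 1.07.

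Slc31a1, the importer, had a log2 RPKM of 6.22 in male and 6.31 in female liver, and Atox1, the chaperone of the pumps, had 5.89 in male and 5.83 in female liver. Atp7b, the pump that is defective in Wilson disease, had 3.26 in male and 3.11 in female liver on the same scale, a higher level than that of Atp7a, the pump of most other tissues, with 1.09 in male and 1.26 in female liver. The lowest adjusted p among the 7 copper genes was 0.261, for Slc31a2, whose entry covers 33.4% of the gene's span in GENCODE. Of 8 compared genes of a further list of copper delivery and use, 1 was called (12.5%, against 17.4% of all compared genes). This was Xiap, 1.33-fold higher in male liver (adjusted p = 0.0315, authors' deposited table). It encodes an inhibitor of apoptosis that also binds copper. Sod1, the copper and zinc enzyme that CCS loads, had 8.91 in male and 8.93 in female liver on the log2 RPKM scale and was not called.

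Reductases of the Steap family, which reduce iron and copper before transport, had 1 call among 3 genes (33.3%, against 17.4% of all compared genes). Steap2 (chromosome 5, 5664831 to 5694568, mm9) had a log2 RPKM of -0.30 in male and 0.46 in female liver. It was 1.64-fold higher in female liver (adjusted p = 0.013, authors' deposited table), and the 94 male and 209 female reads implied allow 1.33-fold to 2.19-fold. The abundant members were not called: Steap4 had 5.42 in male and 5.56 in female liver, and Steap3 had 4.79 in male and 4.81 in female liver, all log2 RPKM. Steap1, which lies 41.8 kb from Steap2 with no other entry of the table between them, was at the floor in both sexes.

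Of the 2 divalent metal transporters, neither was called, against 17.4% of all compared genes. Slc11a1, which acts in the phagosomes of macrophages, had a log2 RPKM of 1.78 in male and 1.20 in female liver, 1.43-fold higher in male liver (adjusted p = 0.128, authors' deposited table). Markers of Kupffer cells, the resident macrophages of liver, lay on the other side. Of the 6 in the table, 4 (Clec4f, Vsig4, Marco and Timd4) were called higher in female liver (66.7%, against 10.2% of all compared genes). The summed level of the 6 markers was 139 RPKM in male and 177 RPKM in female liver. The part of cell makeup in the Slc11a1 values was not tested. Slc11a2, the proton-coupled importer of iron and other metals, is listed at a log2 RPKM of 8.01 in male and 7.71 in female liver (adjusted p = 0.327, authors' deposited table). That entry spans 0.227 kb, 0.611% of the gene's span in GENCODE, so its level is that of a short stretch and is not comparable with those of whole transcripts.

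All 3 Slc41 magnesium transporter genes were called higher in male liver, against 7.21% of all compared genes. Slc41a1 encodes a magnesium exporter of the plasma membrane (chromosome 1, 133724589 to 133745440, mm9). It had a log2 RPKM of 0.66 in male and -0.35 in female liver, 2.0-fold higher in male liver (adjusted p = 0.0017, authors' deposited table), and 83 male and 53 female reads allow 1.44-fold to 2.95-fold. Slc41a3, whose product moves magnesium out of mitochondria (chromosome 6, 90554874 to 90596406, mm9), had 0.09 in male and -1.06 in female liver on the log2 RPKM scale. Male liver was 2.26-fold higher (adjusted p = 0.0193, authors' deposited table), on 28 male and 16 female reads that allow 1.20-fold to 4.53-fold.

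Slc41a2 was the Slc41 gene above the liver-expressed limit. Its log2 RPKM was 4.61 in male and 4.12 in female liver, 1.58-fold higher in male liver (adjusted p = 0.000929, authors' deposited table). The entry (chromosome 10, 82693594 to 82696462, mm9) spans 2.87 kb, 2.68% of the gene's span in GENCODE, so the value describes that stretch and not the whole gene. The 3 genes are on different chromosomes.

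Of a list of 16 other magnesium genes, 14 were compared, none was called higher in male and 3 were called higher in female liver by the authors' deposited table. Those 3 are 21.4% of the 14, against 10.2% of all compared genes called higher in female liver, and the other 11 were not called. Nipal1, a magnesium transporter gene, had a log2 RPKM of 0.41 in male and 2.81 in female liver and was 5.34-fold higher in female liver (adjusted p = 1.08e-19, authors' deposited table). Trpm6, the magnesium channel gene of kidney and intestine, had -2.74 in male and -0.43 in female liver on the log2 RPKM scale, also 5.34-fold higher in female liver (adjusted p = 6.56e-07, authors' deposited table). Cnnm4, which takes part in magnesium export, was 1.86-fold higher in female liver (adjusted p = 0.0135, authors' deposited table).

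The abundant magnesium genes of that list were not called. Magt1, a membrane protein gene linked to magnesium uptake, had a log2 RPKM of 5.71 in male and 5.33 in female liver, Trpm7, a widely expressed channel kinase, had 4.16 in male and 4.04 in female liver, and Mrs2, the importer of mitochondria, had 3.23 in male and 3.26 in female liver. Whether the Slc41 genes differ from the other magnesium genes was not tested. Cnnm1 had the widest positive ratio at 3.28-fold higher in male liver, without passing the limit (adjusted p = 0.13, authors' deposited table). Its level was low in both sexes, with a log2 RPKM of -3.24 in male and -4.63 in female liver.

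**Figure D4:**
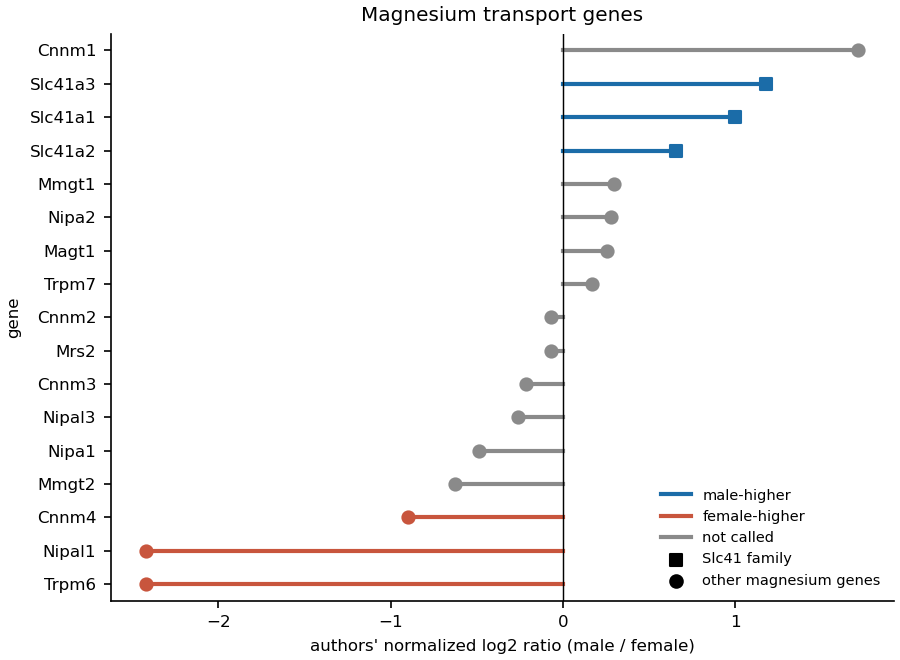
Normalized log2 ratio, male over female, as the authors give it (horizontal axis) of 3 Slc41 genes (squares) and 14 other compared magnesium genes (circles), 1 gene per line in order of ratio; blue was called higher in male liver, red in female liver and grey was not called. The 3 squares lie between 0.66 and 1.18, and the 3 called circles lie between -2.42 and -0.90.

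Over all 37 genes of the 4 lists of related genes, 29 were compared and 5 (17.2%, against 17.4% of all compared genes) were called in the authors' deposited table, Xiap higher in male liver and Nipal1, Trpm6, Cnnm4 and Alb higher in female liver. Albumin, the main zinc carrier of plasma, had a log2 RPKM of 14.83 in male and 15.52 in female liver and was 1.62-fold higher in female liver (adjusted p = 0.000181, authors' deposited table). Hrg, a plasma protein that also binds zinc and copper, had 9.10 in male and 9.27 in female liver on the log2 RPKM scale (adjusted p = 0.372, authors' deposited table).

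Hepatocyte markers were abundant in both sexes, and 1 of 5 was called in each direction. Of all compared genes, 7.21% were called higher in male and 10.2% in female liver, so 0 or 1 call among 5 markers says little. Called markers higher in male against female liver numbered 0 and 2 of 5 for other macrophages, 0 and 1 of 5 for sinusoidal endothelium, 0 and 3 of 5 for stellate cells, 1 and 1 of 5 for bile duct cells and 1 and 0 of 3 for erythroid cells. Among 22 compared members that were not called and have a transcript length, the counting interval left out equality in 10, and among 7 called members it did so in all 7. Entries of 6 members, Mtf1, Slc39a13, Slc30a10, Slc30a1, Cp and Slc31a1, overlap an entry on the opposite strand, and the sources used here do not say whether strand was used in counting.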

How the data were processed

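Poly-A-enriched, strand-specific RNA libraries of 2 male and 2 female pools were made, per the labels' protocols. Per the submitters' processing notes, Bowtie and edgeR were used and the build is mm9, with no versions or roles. Per the file headers, the authors deposited 1 log2 RPKM per gene and sex, a normalized log2 ratio (male over female), the linear ratio, a signed fold change (a score, negative where female liver is higher) and an adjusted p-value. The sources used here do not say how p-values were adjusted or reads counted. No values per pool are used here, so the planned count tests gave way to the authors' adjusted p under 0.05. No p adjusted over the list is given.

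Members and lists were chosen with earlier results of these data known. Named genes are every called member, the 2 most abundant of each role group, Mt1, Mt2 and Mtf1, and of the related lists the called genes and the 2 most abundant; other genes are named for their role or were chosen after their values were seen. Genes with a ratio of 1 were at the floor (6590, both levels differing by 0.389 on the log2 scale), without a level (14), or above the floor in 1 sex (1460, whole multiples of the floor within 0.3%). Depth was set so that the floor is 1 read, which was subtracted from each gene's implied reads, using GENCODE vM21 lengths by RefSeq accession, and the length implied by the floor came within 2% of the annotated one for 3462 of 4668 genes. Reads derived this way are approximate and could be given for 32 of 42 members. Their intervals are scaled by implied depth (a ratio of 1.31), not by the authors' normalization. The code was tested on simulated data. Python 3.11.15, pandas 2.3.3 and scipy 1.17.1 were used.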

Additional observations from a re-analysis of the deposited data

How the results depend on the processing

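The count of 9 called members changed little with an adjusted p under 0.01 (7, without Steap2 and Slc41a3), with the sign of the plain difference of log2 RPKM values required (9), with at least 1.5-fold (9), and, chosen after seeing the data, with entries that span at least 50% of the gene (8, without Slc41a2). It fell to 4 among the 32 members that reached a log2 RPKM of 1 in either sex. The called share there was 12.5%, against 23.1% of the 39 compared members. The other 5 calls were among the 7 compared members below that limit. For the related genes outside the member rule, the 5 calls became 3 at an adjusted p under 0.01 and 3 at a log2 RPKM of at least 1, both chosen after seeing the data. The median log2 ratio of the members, 0.04, lay between 0.04 and 0.07 under 4 alternatives. The 3 rescalings of 20 named genes, which carry no p of their own, kept the sign of 58 of 60 values. Most of this was fixed in advance. The log2(RPKM + 1) scale must give the sign of the plain difference. The median taken off, -0.004, was smaller in size than every named ratio, the smallest being 0.007 for Ccs. Only the plain difference could therefore show a change of sign, and both changed values belong to 1 gene. Ceruloplasmin, not called, changed sign to -0.008 by the plain difference and to -0.00798 on the log2(RPKM + 1) scale. For Slc39a5 the log2 ratio of -3.36 was -2.83 by the plain difference and -0.80 on the log2(RPKM + 1) scale. That scale also moved Slc41a3 to 0.48 against 1.18, Slc39a6 to -0.43 against -0.89, Slc41a1 to 0.53 against 1.0 and Steap2 to -0.39 against -0.71. No paired analysis was possible because the table gives 1 value per sex, and for that reason leaving out pools, edgeR and DESeq2 were not run. Depth limits Slc39a5, Slc39a2, Slc30a3 and Slc41a3, each with under 30 implied reads per sex.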
